A study of Mus musculus with 10 samples.

Results

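The genes described here are 39 genes of macrophages and other myeloid cells, read in the renal cortex of 10 mice. They form a list of symbols of genes that mark these cells or carry out their functions; the rule sets no measured threshold, but the list was drawn up with earlier results of these data known. Each of the 39 was found on the array, out of 18193 genes in all, and 33 of them were bright enough to be tested, out of 11486 tested genes. The 6 that stayed below the level filter were Itgam, Cd163, Cd48, Gpnmb, S100a8 and S100a9, and they are given as values with no limma test.

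All mice were FVB/N animals, 20 weeks old, that had undergone partial ablation of a kidney and then removal of a kidney (uninephrectomy). The drugs were given for 6 weeks, starting when 6 weeks had passed since the ablation and 4 since the uninephrectomy. In the losartan group (5 mice) the dose was 500 mg/l, and in the aliskiren group (5 mice) it was 50 mg/kg per day. Losartan blocks the type 1 angiotensin II receptor and aliskiren inhibits renin, so both drugs act on the renin-angiotensin system. The comparison asks whether the drugs leave the ablated kidney in different states. Untreated and unoperated mice were not analysed here, so nothing below says how either drug compares with no drug. Total RNA of each cortex was hybridised to 1 array, and values are log2 RMA values (robust multi-array average, a background-corrected and normalised summary of the probes of a gene), where a difference of 1 is a doubling.

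Macrophages are phagocytes that live in the kidney between the tubules and that also arrive as blood monocytes after injury. Resident cells are kept alive through the receptor Csf1r, monocytes are drawn in through the chemokine receptor Ccr2, and both take up debris, present antigen and make oxidants or repair factors according to their state. Many genes of the lineage are switched on by the transcription factor PU.1 (gene Spi1), which binds DNA with GAGGAA at its core.

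The promoters of 3 members are shown because each holds the longer PU.1 word GAGGAAGT and because these genes varied strongly between mice. Each run is the 300 bases from 250 before to 50 after a RefSeq start site on GRCm38.p6, 5′ to 3′ on the strand of the gene. Capitals mark ACTTCCTC, the reverse complement of GAGGAAGT, which therefore lies on the opposite strand in all 3.
Ctss, chr3:95526536-95526835, plus strand: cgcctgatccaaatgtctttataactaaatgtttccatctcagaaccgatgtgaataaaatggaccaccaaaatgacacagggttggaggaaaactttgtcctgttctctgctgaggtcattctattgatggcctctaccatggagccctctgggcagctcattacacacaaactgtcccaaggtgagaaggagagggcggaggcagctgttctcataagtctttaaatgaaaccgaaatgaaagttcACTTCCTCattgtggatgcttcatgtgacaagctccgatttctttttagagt
Cd53, chr3:106790100-106790399, minus strand: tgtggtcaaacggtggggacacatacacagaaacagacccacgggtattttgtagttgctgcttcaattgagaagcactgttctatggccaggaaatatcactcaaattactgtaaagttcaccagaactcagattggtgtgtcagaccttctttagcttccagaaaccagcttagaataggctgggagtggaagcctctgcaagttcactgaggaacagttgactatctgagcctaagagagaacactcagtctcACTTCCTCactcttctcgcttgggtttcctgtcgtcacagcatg
C1qc, chr4:136892865-136893164, minus strand: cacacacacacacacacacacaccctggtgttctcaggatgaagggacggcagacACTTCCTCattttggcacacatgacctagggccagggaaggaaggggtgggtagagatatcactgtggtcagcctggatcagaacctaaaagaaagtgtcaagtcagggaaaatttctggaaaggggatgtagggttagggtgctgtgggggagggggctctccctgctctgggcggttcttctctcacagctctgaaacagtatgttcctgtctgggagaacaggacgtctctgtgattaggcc
The word takes up bases 249 to 256 of the window in Ctss, 257 to 264 in Cd53 and 56 to 63 in C1qc. RefSeq windows were matched for 30 of the 39 members, and 4 of the 30 (13.3%) held GAGGAAGT on either strand, the other one being S100a8. Among all genes with such a window the share was 3.69%. The core GAGGAA, which is part of GAGGAAGT and so is counted in it too, was found in 15 of the 30 members (50%) and in 31.3% of all genes. A match describes letters and not a bound site.

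The 10 arrays had nearly equal medians, from 5.53 to 5.57. The tissue carried the proximal tubule markers of renal cortex, with all 7 tested and a mean level of 12.32 to 12.87 in every mouse. The losartan mouse 3 stood apart: the mean of 4 perirenal fat markers (Adipoq, Cidec, Retn, Ucp1) was 10.59 there, against 8.12 in aliskiren mouse 3, 5.80 in aliskiren mouse 2 and 4.00 to 4.33 in the other 7. The drug differences, the spread and the relation to Havcr1 are also given without that mouse. None of the 7 neutrophil, 4 B cell or 3 NK cell markers found reached the level filter of 5.53, and 2 of 7 T cell, 1 of 5 dendritic cell and 1 of 3 classical monocyte markers did.

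No macrophage or myeloid gene passed the test between the drugs. With limma and Benjamini-Hochberg adjustment over all tested genes, 0 of 33 members passed an adjusted p of 0.05, as did 0% of all genes tested. The lowest adjusted p of a member was 0.948. At an unadjusted p under 0.05, 0 of 33 members passed, against 4.72% of all genes. In 0 of 33 members were the groups separated without overlap, against 0.914% of all genes. In whole cortex, a change in the number of these cells and a change in the RNA each cell makes cannot be told apart.

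The differences were small and their intervals wide. The mean was higher with aliskiren for 23 of 33 members, against 46.2% of all genes, and the median difference (aliskiren minus losartan) was 0.05, against -0.01 over all genes. For 28 of 33 members the difference was under 0.2 in size, and the extremes were -0.26 for Ncf4 and 0.52 for Lyz2. The 95% interval of the difference lay within 1.5-fold in either direction for 4 of 33 members, against 87.7% of all genes, so that for most members a drug difference of 1.5-fold in at least 1 direction lay within the interval. The median standard error was 0.45 for members and 0.09 for all genes.

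**Figure D1:**
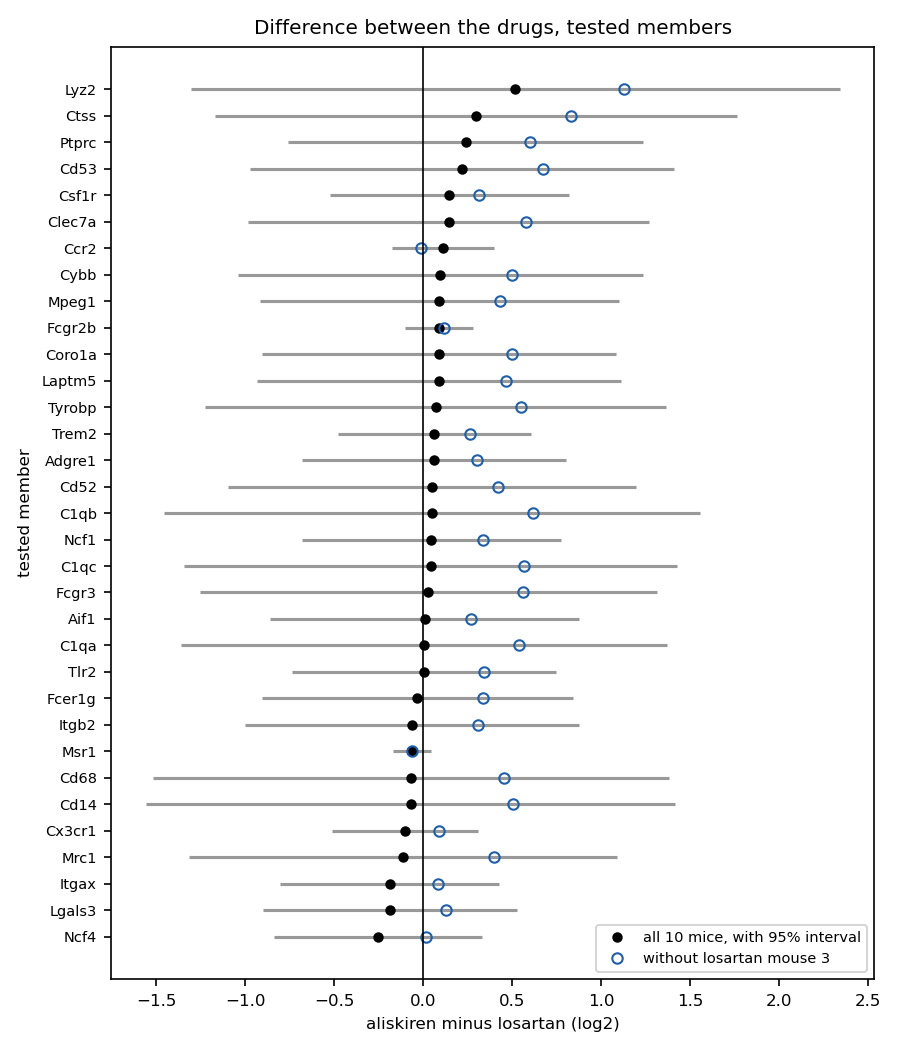
Difference in log2 value between the drugs (aliskiren minus losartan, horizontal axis) for the 33 tested members, with the limma 95% interval as a bar; open circles give the difference without losartan mouse 3. Every interval spans 0, and without that mouse 31 of 33 circles lie above 0.

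What set the members apart from most genes was the spread between mice, which was also wide for markers of tubular injury. The 3 tested (Havcr1, Lcn2 and Vcam1) had a mean deviation from their gene means of 2.85 in losartan mouse 3. It was 1.54 in aliskiren mouse 1, -1.72 in losartan mouse 4 and -1.93 in losartan mouse 5. The median SD over the 10 mice was 0.77 for members and 0.15 for all genes, and the SD of 26 of 33 members lay above the 95th percentile of all tested genes. The highest and the lowest mouse differed by more than 4-fold for 22 members, and the median log2 range was 2.59 for members and 0.47 for all genes. Losartan mouse 3 was the highest of the 10 for 29 of 33 members, against 29.2% of all genes. Losartan mouse 4 was the lowest for 24 of 33, against 13.7% of all genes. Losartan mouse 3 and aliskiren mouse 1 were the 2 highest for 26 members, and losartan mice 4 and 5 the 2 lowest for 19. Shares of all genes are not given for these last 2 counts.

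The highest and the lowest values of most members thus came from mice given the same drug. The SD was larger in the losartan group for 32 of 33 members, against 73.1% of all genes, with a median of 1.04 with losartan and 0.52 with aliskiren. Without losartan mouse 3, an alternative chosen after seeing the data, the SD was larger with losartan for 26 of 33 members, against 56.2% of all genes, and the losartan median was 0.71. Without aliskiren mouse 1 the aliskiren median was 0.27. This difference in spread is described and was not tested. Over the 9 mice without losartan mouse 3, the median SD was 0.59 for members and 0.13 for all genes, and 24 of 33 members lay above the 95th percentile.

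**Figure D2:**
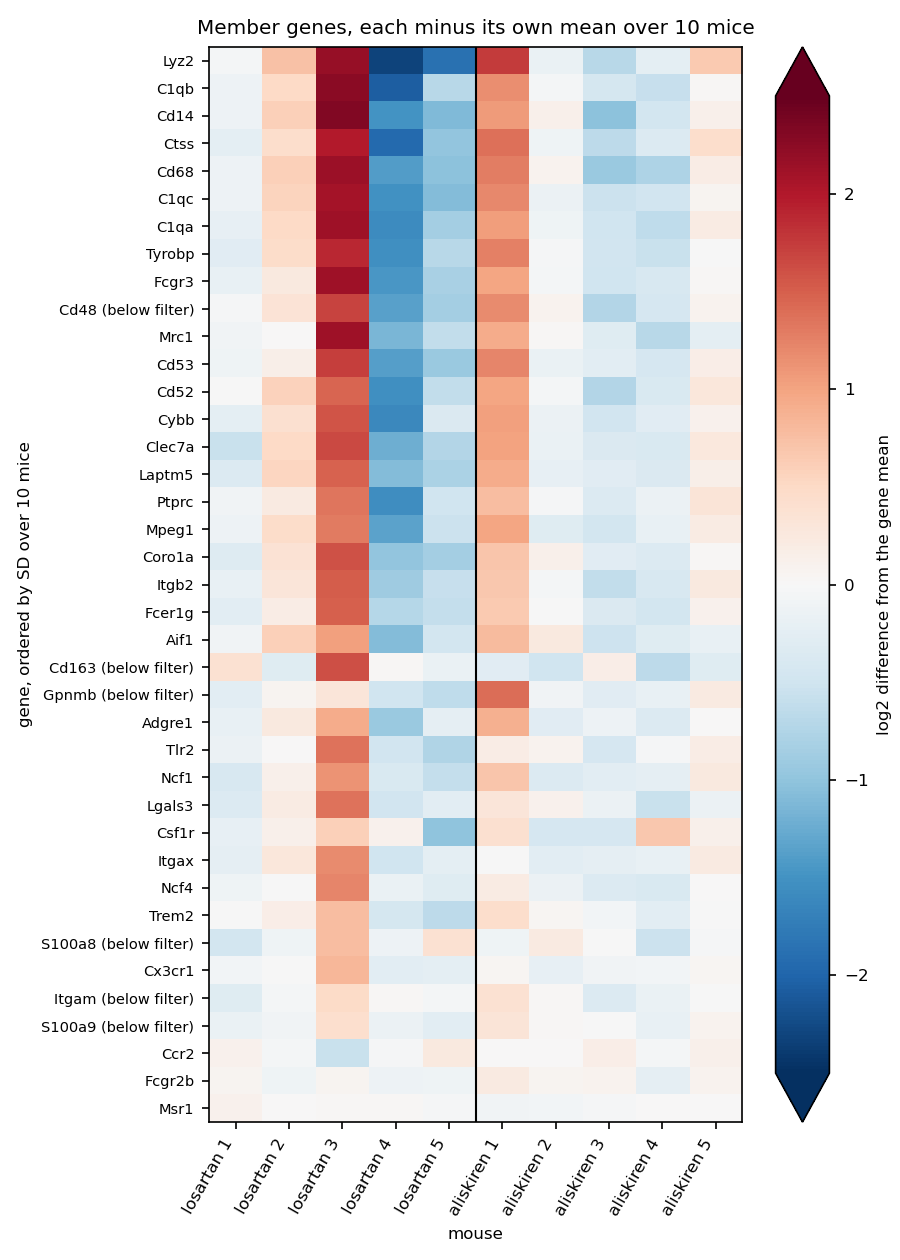
Log2 value of each of the 39 members in each mouse minus the mean of that gene over the 10 mice (red above, blue below), with genes ordered by SD from top to bottom. Losartan mouse 3 and aliskiren mouse 1 are red and losartan mice 4 and 5 blue for most genes, while Ccr2, Fcgr2b and Msr1 at the bottom vary little.

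Among the genes shared by all leukocytes, Ptprc encodes CD45, a phosphatase on every white blood cell. Ptprc stood at 7.63, 7.93, 9.05, 6.16 and 7.21 in losartan mice 1 to 5 and at 8.49, 7.69, 7.37, 7.56 and 8.04 in aliskiren mice 1 to 5. The aliskiren values lay inside the losartan range. Its means were 7.59 ± 1.05 (SD, n = 5) and 7.83 ± 0.44 (SD, n = 5), a difference of 0.24 ± 0.45 (SE; limma adjusted p = 0.976). The other tested genes of this group, Cd52, Cd53, Laptm5, Coro1a and the integrin chain Itgb2, had the same highest and lowest mouse, and 5 of the 6 tested had a higher mean with aliskiren. Cd48, below the filter, ran from 3.85 to 6.91 with the same 2 mice at its ends. These orders are those of the brightest probe sets. A dimmer probe set of Laptm5, with a mean of 5.99, was instead lowest in losartan mouse 3 at 5.61 and highest in losartan mouse 5 at 6.31.

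Genes of macrophage identity held the widest and some of the narrower spreads. Lyz2, which encodes the lysozyme of myeloid cells, had the largest SD of all members, 1.42. It stood at 10.09, 10.87, 12.31, 7.82 and 8.28 in the losartan mice and at 11.89, 9.96, 9.43, 9.88 and 10.80 in the aliskiren mice, a 22.4-fold span. The difference between the drugs was 0.52 ± 0.82 (SE; limma adjusted p = 0.969), and it was 1.13 without losartan mouse 3, where no gene passed either.

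Cd68, a lysosomal membrane protein of phagocytes, was likewise highest in losartan mouse 3 and lowest in losartan mouse 4. Its values were 5.66, 6.38, 7.92, 4.38 and 4.75 with losartan and 7.05, 5.87, 4.85, 5.01 and 5.97 with aliskiren. Both groups held high and low mice, and the difference of -0.07 ± 0.65 (SE; limma adjusted p = 0.996) became 0.45 without losartan mouse 3. Adgre1, which encodes a surface receptor long used to stain mouse macrophages, was 5.67, 6.09, 6.78, 4.92 and 5.62 with losartan and 6.74, 5.56, 5.72, 5.51 and 5.86 with aliskiren. Aliskiren mouse 1 stood away from its group for this gene, and the drug difference was 0.06 ± 0.33 (SE; limma adjusted p = 0.994). Aif1, Mpeg1 (perforin-2) and the protease gene Ctss were also highest in losartan mouse 3 and lowest in losartan mouse 4, over spans of 4.34-fold, 6.23-fold and 15.1-fold.

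Csf1r, the receptor for the growth factors that keep macrophages alive, did not keep that order. It was 10.38, 10.71, 11.18, 10.68 and 9.58 with losartan and 10.98, 10.16, 10.16, 11.25 and 10.71 with aliskiren. Aliskiren mouse 4 was highest and losartan mouse 5 lowest, and losartan mouse 4, the lowest for most members, was in the middle. The difference was 0.15 ± 0.30 (SE; limma adjusted p = 0.981). Among its other probe sets, the brightest gave 8.62 in losartan mouse 4 and 7.76 in losartan mouse 5, so it too was low in mouse 5 and not in mouse 4.

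**Figure D3:**
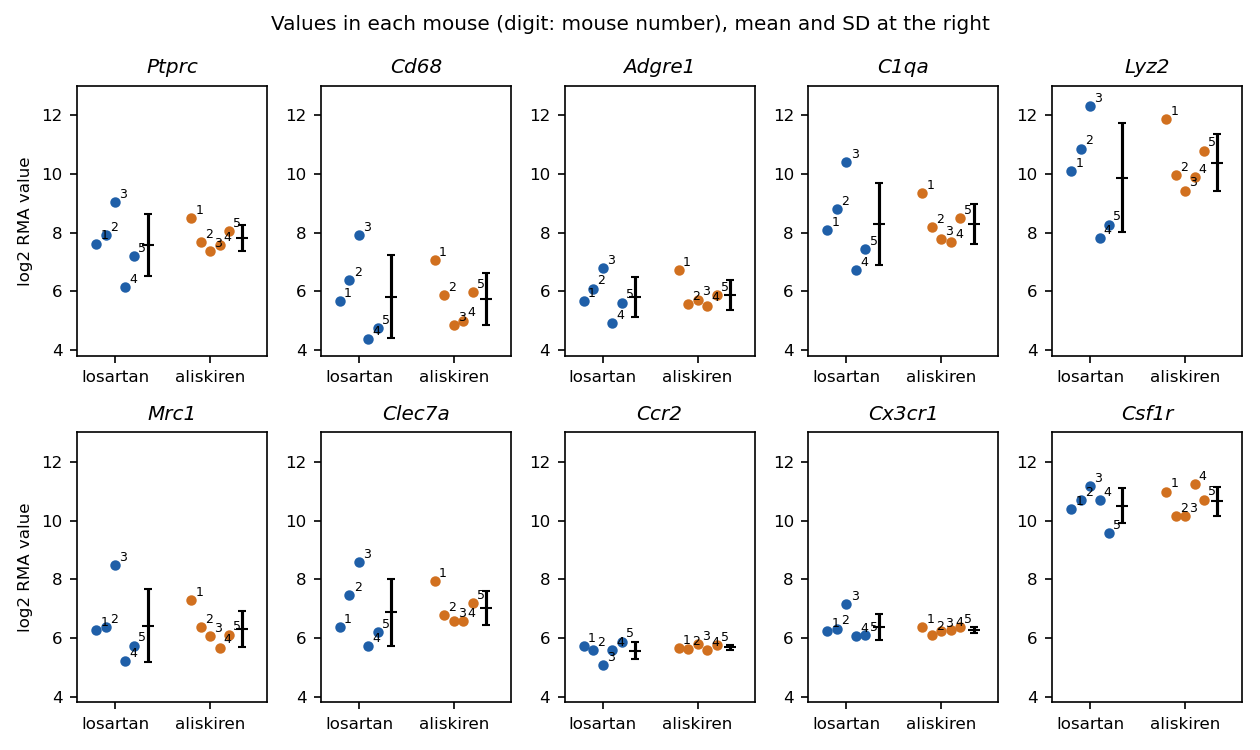
Log2 RMA value (vertical axis) of 10 members in each mouse, losartan in blue and aliskiren in orange, with mouse numbers beside the points and mean and SD as bars. The groups overlap in every panel, and losartan mouse 3 is the top point for Ptprc, Cd68, Adgre1, C1qa, Lyz2, Mrc1, Clec7a and Cx3cr1 and the bottom point for Ccr2.

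The 3 chains of complement C1q, the recognition part of the classical pathway and a product of tissue macrophages, had the same high and low mice. C1qa was 8.09, 8.80, 10.42, 6.72 and 7.45 with losartan and 9.35, 8.19, 7.79, 7.67 and 8.51 with aliskiren. The drug means were 8.30 ± 1.41 (SD, n = 5) and 8.30 ± 0.67 (SD, n = 5), with a difference of 0.01 ± 0.62 (SE; limma adjusted p = 0.999). C1qb spanned 19.8-fold and C1qc 12.1-fold between the same 2 mice.

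Resident, monocyte and M2-like members were then compared. Averaged over its tested genes, each set was expressed as the deviation from its own mean over the 10 mice. The resident set (Cx3cr1, Adgre1, Csf1r and the C1q chains) was at 1.47 in losartan mouse 3, 0.79 in aliskiren mouse 1, -1.04 in losartan mouse 4 and -0.68 in losartan mouse 5. The monocyte and recruited set (Ccr2, Cd14, Itgax) was at 0.98, 0.35, -0.68 and -0.37 in those mice. The M2-like set (Mrc1, Msr1, Clec7a), named for the alternatively activated state, was at 1.27, 0.62, -0.78 and -0.46. The means of all 3 sets put the 4 mice in the same order, but the brightest probe sets of Ccr2, Msr1 and Csf1r did not. The 4 mice were picked as extremes of these same members, so a shared order was partly built in. The C1q chains, 3 of the 6 resident genes, were at 2.15, 1.13, -1.72 and -0.88 in those mice. The order of losartan mice 4 and 5 in the resident mean rests on the C1q chains. In the monocyte and recruited set, Cd14 varied most, at 9.86, 8.59, 6.03 and 6.43 in those mice. Itgax was at 7.12, 5.93, 5.44 and 5.69, and Ccr2 at 5.07, 5.64, 5.59 and 5.87.

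**Figure D4:**
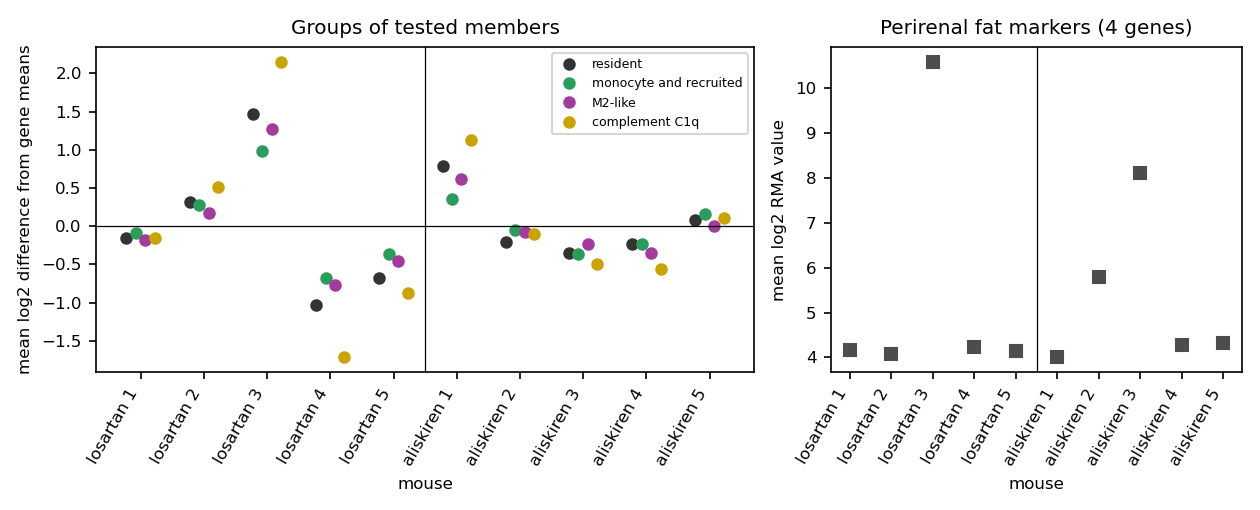
Left, mean log2 deviation of 4 sets of tested members from their gene means in each mouse; right, mean log2 level of 4 perirenal fat markers in the same mice. The sets share their highest and lowest mouse, but the C1q chains are also part of the resident set, so those sets are not separate. Aliskiren mouse 1, the next highest for the members, has the lowest fat marker mean of 4.00.

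The monocyte receptor gene Ccr2 gave an unsettled reading. Its brightest probe set was 5.72, 5.58, 5.07, 5.59 and 5.87 with losartan and 5.64, 5.63, 5.79, 5.58 and 5.75 with aliskiren. It was lowest in losartan mouse 3, against the trend of the other members, and the difference was 0.11 ± 0.13 (SE; limma adjusted p = 0.954). Another of its 4 probe sets was highest in losartan mouse 3 at 6.47, and a further one at 6.16, so the probe sets of Ccr2 disagree and no order of mice is given for it. Cd14, the lipopolysaccharide co-receptor, spanned 14.1-fold and Itgax (CD11c) 3.21-fold, both highest in losartan mouse 3. Itgam (CD11b), below the filter, stayed between 2.97 and 3.79.

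The fractalkine receptor gene Cx3cr1, typical of resident and patrolling cells, was 6.24, 6.31, 7.15, 6.06 and 6.08 with losartan and 6.36, 6.11, 6.24, 6.25 and 6.37 with aliskiren. Only losartan mouse 3 stood clear of the other mice, and the difference was -0.10 ± 0.18 (SE; limma adjusted p = 0.972). Mrc1, the mannose receptor CD206, was 6.26, 6.37, 8.47, 5.22 and 5.74 with losartan and 7.28, 6.38, 6.05, 5.67 and 6.11 with aliskiren. Losartan mouse 3 and aliskiren mouse 1 were highest and losartan mouse 4 lowest, with a difference of -0.11 ± 0.54 (SE; limma adjusted p = 0.994).

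Clec7a, the beta-glucan receptor dectin-1, was 6.38, 7.45, 8.60, 5.72 and 6.21 with losartan and 7.95, 6.77, 6.59, 6.57 and 7.20 with aliskiren. Losartan mouse 3 and aliskiren mouse 1 were again the highest, and the difference was 0.14 ± 0.51 (SE; limma adjusted p = 0.993). The scavenger receptor gene Msr1 had the smallest p of the members with a lower mean on aliskiren, yet its brightest probe set hardly varied. It was 5.91, 5.81, 5.82, 5.83 and 5.77 with losartan and 5.71, 5.73, 5.76, 5.80 and 5.81 with aliskiren, a difference of -0.06 ± 0.05 (SE; limma adjusted p = 0.948). A dimmer probe set of Msr1 reached 7.03 in losartan mouse 3 and lay between 4.89 and 5.52 elsewhere.

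The haemoglobin scavenger receptor gene Cd163, below the filter, was listed at 4.08, 3.39, 5.30, 3.72 and 3.52 with losartan and at 3.41, 3.19, 3.86, 3.04 and 3.39 with aliskiren. The groups overlap, and without losartan mouse 3 the difference went from -0.62 to -0.30.

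To ask whether the balance of states differed between drugs, 5 genes were set against Adgre1 within each mouse and the difference was tested with an exact permutation test, two-sided, over all 252 splits of the mice. The smallest p this design allows is 0.00794. The drug difference was 0.05 for Ccr2 minus Adgre1 (exact p = 0.929), -0.16 for Cx3cr1 (exact p = 0.563), -0.17 for Mrc1 (exact p = 0.722) and 0.00 for Trem2 (exact p = 1). Adjusted over the 5 contrasts, each of these exact p-values was 1. The contrast with Cd163 was -0.68 (exact p = 0.0794, adjusted 0.397) and is not read, since Cd163 lay below the level filter. The contrast with Ccr2 rests on its brightest probe set, with which other probe sets of Ccr2 disagree, and is not read either. That the contrasts with Cx3cr1, Mrc1 and Trem2 did not pass does not show that the balance was equal.

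Of the genes tied to lipid handling and tissue damage, Trem2, a lipid-sensing receptor, was 5.64, 5.82, 6.42, 5.21 and 5.00 with losartan and 6.09, 5.70, 5.59, 5.38 and 5.65 with aliskiren. The difference was 0.06 ± 0.24 (SE; limma adjusted p = 0.994). Losartan mouse 3 was again the highest, and losartan mouse 5 the lowest. The dimmer probe set of Trem2, with a mean of 4.94, did not keep this order, at 4.76 in losartan mouse 3 and 5.14 in losartan mouse 5. Lgals3, which encodes the lectin galectin-3, was 10.07, 10.62, 11.76, 9.93 and 10.16 with losartan and 10.71, 10.51, 10.26, 9.85 and 10.26 with aliskiren. Its difference was -0.19 ± 0.32 (SE; limma adjusted p = 0.972), with losartan mouse 3 alone above the aliskiren range. Gpnmb, a glycoprotein of lipid-laden phagocytes, was below the filter and highest in aliskiren mouse 1. It was 4.65, 4.98, 5.21, 4.42 and 4.27 with losartan and 6.31, 4.82, 4.63, 4.73 and 5.14 with aliskiren, with overlapping groups.

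Among signalling partners, the ITAM adaptor genes Tyrobp (DAP12) and Fcer1g and the activating receptor gene Fcgr3 spanned 10.8-fold, 4.62-fold and 11.8-fold, each from losartan mouse 4 to losartan mouse 3. Fcgr2b, the inhibitory Fc receptor, had the smallest p among members with a higher mean on aliskiren. It was 9.88, 9.70, 9.87, 9.68 and 9.71 with losartan and 10.03, 9.88, 9.91, 9.59 and 9.90 with aliskiren. The groups overlap and the difference was 0.09 ± 0.09 (SE; limma adjusted p = 0.949). Its span was 1.36-fold, the narrowest after Msr1.

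Cybb, the catalytic NADPH oxidase subunit of phagocytes, was 6.55, 7.20, 8.37, 5.18 and 6.44 with losartan and 7.82, 6.66, 6.31, 6.52 and 6.91 with aliskiren. It spanned 9.08-fold with a difference of 0.10 ± 0.51 (SE; limma adjusted p = 0.994). The cytosolic subunits Ncf1 and Ncf4 spanned 3.33-fold and 3.01-fold, both highest in losartan mouse 3. Tlr2, a receptor for bacterial lipoproteins, spanned 4.28-fold with the same mouse on top.

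The calprotectin genes S100a8 and S100a9, abundant in neutrophils and fresh monocytes, were both below the filter. S100a8 was 3.32, 3.69, 4.55, 3.66 and 4.17 with losartan and 3.69, 4.00, 3.77, 3.26 and 3.77 with aliskiren. S100a9 stayed between 4.18 and 4.84. Both were highest in losartan mouse 3. The mean of the 7 neutrophil markers found lay between 4.22 and 4.63 in every mouse, and was lowest in losartan mouse 3.

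The sign of the median drug difference changed with single mice. Without losartan mouse 3 the median difference was 0.42 and 31 of 33 members were higher with aliskiren, against 49.4% of all genes. Without losartan mouse 4 it was -0.22 with 4 members higher, against 44.8% of all genes. Without losartan mouse 5 it was -0.10 with 8 higher, against 43.8%, and without aliskiren mouse 1 -0.15 with 5 higher, against 43.6%. In each of these fits 0 members passed.

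Losartan mouse 3 was highest both for the fat markers and for most members. Aliskiren mouse 1 had the lowest fat marker mean, but it and losartan mouse 3 were together the 2 highest mice for 26 members. Aliskiren mouse 3, with a fat marker mean of 8.12, had macrophage identity genes at a deviation of -0.54. The part of the fat markers in the values of losartan mouse 3 was not tested. With the fat marker mean as a covariate, the median difference was 0.07 and 0 members passed. Without the 3 mice of raised fat markers, a choice made after seeing the data, the median difference was 0.64, with 31 of 33 members higher, against 48.4% of all genes.

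The members followed Havcr1, which encodes KIM-1, a protein that injured proximal tubule cells display. Havcr1 was 7.23, 8.69, 10.76, 6.22 and 5.41 with losartan and 9.37, 8.53, 6.08, 6.57 and 7.82 with aliskiren. Its order resembles that of the members, with losartan mouse 3 and aliskiren mouse 1 on top. Over the 10 mice, 29 of 33 members correlated positively with Havcr1 (Pearson, 100000 permutations, Benjamini-Hochberg adjusted p under 0.05 over 11485 genes), against 8.63% of all genes. The median r was 0.90, and 18 members passed with Spearman's rho (median 0.90), against 1.61% of all genes.

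Cd68 had the highest Pearson value, r = 0.97, with rho = 0.95 (permutation adjusted p = 0.00689 and 0.0222). For C1qa r was 0.92 and rho 0.93 (permutation adjusted p = 0.00980 and 0.0315), and for Mrc1 r was 0.89 and rho 0.88 (permutation adjusted p = 0.0108 and 0.0643). The 4 members that did not pass were Csf1r (r = 0.57), Fcgr2b (r = 0.49), Msr1 (r = -0.11) and Ccr2 (r = -0.75). These are also the 4 tested members whose brightest probe set was not highest in losartan mouse 3, the mouse of highest Havcr1. Laptm5 and Trem2 passed, yet each had a dimmer probe set that departed. It was lower in losartan mouse 3 (5.61 and 4.76) than in losartan mouse 5 (6.31 and 5.14). Each r is that of the brightest probe set. Dimmer probe sets of Ccr2 (6.47 and 6.16) and Msr1 (7.03) were highest in losartan mouse 3. No relation to Havcr1 is therefore read for Ccr2 or Msr1. With the drug means removed, 19 members passed an exact permutation test within the drugs, against 3.99% of all genes.

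The calls rest on a few mice. Without the 2 mice farthest from the median of Havcr1 (losartan mice 3 and 5), 0 of 33 members and 0% of all genes passed. The median r of the members was then 0.84, and 27 had an unadjusted exact permutation p under 0.05, against 12.3% of all genes. Leaving out losartan mouse 3 alone also left 0 members (median r 0.84) and 0% of all genes. Unadjusted, 27 members then had a permutation p under 0.05, against 1566 of 11485 genes. Leaving out aliskiren mouse 1 left 13 members, against 1.72% of all genes. Without the 3 mice of raised fat markers 0 members and 0% of all genes passed, with a median r of 0.88. The lowest adjusted p of any gene was then 0.163, so this 0 does not set the members apart. Unadjusted, 28 members had an exact permutation p under 0.05, against 1519 of 11485 genes. Members measured in the same 10 extracts are not independent of each other, and these values describe how they and Havcr1 varied across the same animals.

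**Figure D5:**
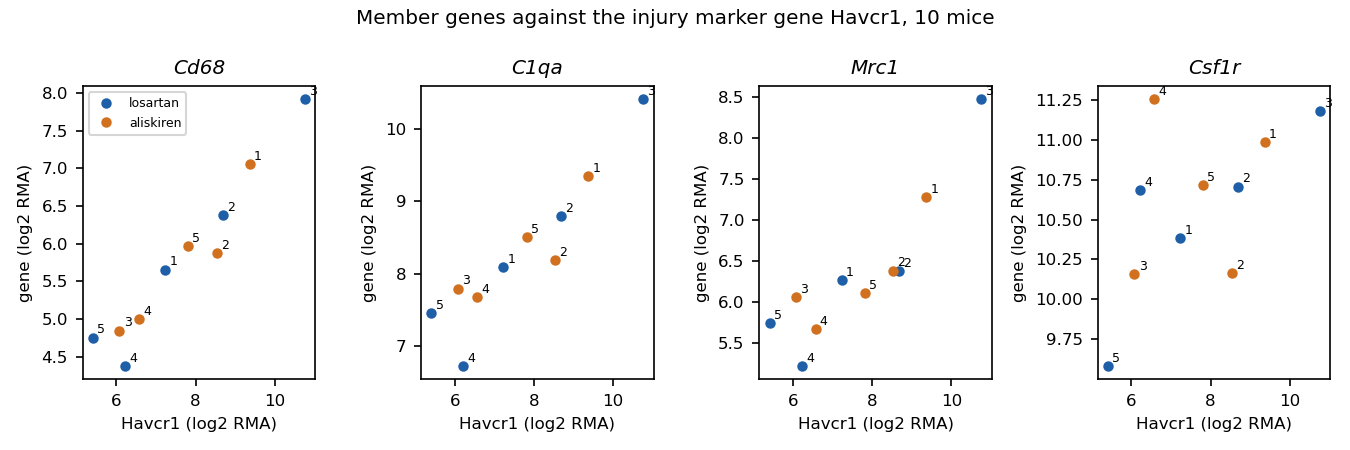
Log2 value of Cd68, C1qa, Mrc1 and Csf1r (vertical axes) against Havcr1 (horizontal axis) in the 10 mice, losartan in blue and aliskiren in orange, with mouse numbers. The first 3 climb from losartan mice 4 and 5 to losartan mouse 3 (r of 0.97, 0.92 and 0.89), whereas Csf1r scatters (r = 0.57).

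Of 49 further genes of the system, 45 were found and 26 tested, with 11 higher and 15 lower with aliskiren and 0 passing. At an unadjusted limma p under 0.05, 1 of the 26 (Spi1) passed, against 4.72% of all genes. That count is near the share of all genes and is not read as a result. Spi1, which encodes PU.1, was 5.79, 5.97, 6.16, 5.96 and 5.90 with losartan and 5.96, 5.64, 5.74, 5.72 and 5.67 with aliskiren. The groups overlap through aliskiren mouse 1, and the difference was -0.21 ± 0.08 (SE; limma adjusted p = 0.945). Losartan mouse 3 was the highest for 13 of the 26, against 29.2% of all genes. Among the 13 were Csf1, the ligand of Csf1r, at 7.88, and Ccl2, the ligand of Ccr2, at 7.99. Ccl2 was 7.14 in aliskiren mouse 1 and between 4.90 and 6.29 in the remaining mice.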

How the data were processed

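The authors deposited log2 RMA values of 45101 probe sets for 10 arrays, made with Affymetrix Expression Console 1.1 and RMA per the submitters' processing notes; a genome build is not given in the sources used here. RMA normalises arrays to one distribution and compresses low values. After 64 control probe sets were removed, 34945 probe sets had 1 gene symbol in the platform annotation, 932 had several and 9160 none. The probe set of highest mean stood for each of 18193 genes, and genes with a mean of at least 5.53 (the median level over the non-control probe sets) were tested. The drugs were compared with limma 3.58.1 in R 4.3.3 (lmFit, eBayes, two-sided, Benjamini-Hochberg 0.05). The script was tested on simulated data. Depth has no meaning for arrays, and 5 mice per group limit the precision. Mice are separately numbered in the labels, and the limma p-values set the drug difference against the spread between mice of the same group.

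The members and lists were chosen with earlier results of these data known. Values in every mouse are given for 16 members listed by name, the member of smallest p in each direction and the member of largest SD. Alternatives covered filters, probe set choice, scaling, variance model, array weights, a replicate block, a fat marker covariate and left-out mice.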

Additional observations from a re-analysis of the deposited data

Results flagged for a closer look

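Values far from the rest of their group of 5 were looked for in 40 sets of 5 values, and chance marks about 1 in 20. Of the 3 found, Adgre1 was 6.74 in aliskiren mouse 1, with the nearest aliskiren mouse at 5.86. Cx3cr1 was 7.15 in losartan mouse 3, with the nearest losartan mouse at 6.31. The mean of the perirenal fat markers was 10.6 in losartan mouse 3, with the nearest losartan mouse at 4.24.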

How the results depend on the processing

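Under 23 alternatives, 0 members and 0 genes passed the adjusted threshold. A replicate block for the mouse number was included (0 members, median difference 0.05). Deviations of same-numbered mice correlated at -0.23 to 0.42, and 2 of 5 mice matched their own number best. So few values cannot decide whether the numbers pair the mice. With a stricter level filter, at the 75th percentile, 10 members were higher with aliskiren and 9 were highest in losartan mouse 3, since only 11 members were tested. Leaving out each mouse in turn gave a median difference of -0.22 to 0.42, with 4 to 31 members higher. Over these fits the difference ran from -0.12 to 0.60 for Ptprc, -0.43 to 0.45 for Cd68, -0.16 to 0.30 for Adgre1, -0.083 to 0.31 for Csf1r, -0.39 to 0.54 for C1qa, -0.013 to 0.19 for Ccr2, -0.18 to 0.091 for Cx3cr1, -0.41 to 0.40 for Mrc1, -0.29 to 0.50 for Cybb, -0.33 to 0.13 for Lgals3, -0.092 to 0.26 for Trem2 and -0.14 to 0.58 for Clec7a. Against Adgre1 it ran from -0.32 to 0.28 for Ccr2, -0.25 to 0.027 for Cx3cr1, -0.29 to 0.10 for Mrc1 and -0.10 to 0.12 for Trem2. Array weights gave 0.043 for Cd68, 0.024 for Cx3cr1, 0.094 for Mrc1 and 0.0080 for Lgals3. Without losartan mouse 3 and aliskiren mouse 1 together the difference was 0.13 for Cd68, -0.0039 for Ccr2, 0.067 for Cx3cr1, 0.15 for Mrc1 and 0.028 for Lgals3. The mean of all probe sets gave -0.043 for Cybb. The cause of these sign changes was not tested. The members correlated with Havcr1 numbered 19 with drug means removed. They numbered 0 without the 2 farthest mice and 0 without the 3 mice of raised fat markers. In both, 0% of all genes passed too. The choice of the 3 mice was made after seeing the data, as was leaving out each mouse in turn here, which gave 0 to 29. The same added alternative left 26 to 33 members with the larger SD on losartan.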

Other observations

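Among genes outside the members, Retnla, a secreted product of alternatively activated macrophages that fat tissue also makes, was 6.17, 5.53, 10.24, 5.08 and 5.33 in losartan mice 1 to 5 and 6.58, 6.41, 8.71, 5.75 and 6.83 in aliskiren mice 1 to 5. Its 2 highest mice were losartan mouse 3 and aliskiren mouse 3, the 2 mice of highest fat marker mean. Cd44, a hyaluronan receptor of leukocytes and injured tubules, was 6.30, 7.61, 9.48, 4.69 and 5.15 with losartan and 8.31, 6.82, 5.92, 6.37 and 7.75 with aliskiren, with losartan mouse 3 and aliskiren mouse 1 highest and losartan mice 4 and 5 lowest. These genes were chosen after their values were seen.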
